A study of Rattus norvegicus with 6 samples.

Results

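The motile cilium axoneme genes are those whose proteins build the beating core of cilia and flagella. They were taken by symbol from the array annotation: the dynein chains and dynein assembly factors (Dnah, Dnai, Dnali, Dnaaf, Dnal1, Dnal4), radial spoke proteins (Rsph), tektins and genes named after them (Tekt), the dynein regulatory complex (Drc), the cilia and flagella associated proteins (Cfap), and Spag6, Spag16, Spag17, Hydin, Ccdc39 and Ccdc40 with their like-named copies. A gene counted only where a probe set carried exactly 1 symbol. By this rule 56 of the 14506 genes tested were members, each read by 1 probe set, and they were sorted by known place in the axoneme into 9 classes. Dnah5, Dnah9, Rsph4a, Spag17, Dnaaf2, Cfap43 and Cfap53 were not analysed here.

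Total RNA came from the endosalpinx, the mucosa that lines the oviduct. The donors were 6 adult rats of the Sprague-Dawley strain, of 240 to 280 g, with 1 Affymetrix array each, labelled as biological replicates. The 3 unmated females were kept isolated from pro-estrus and killed at 0130 h of estrus; their uteri were swollen with fluid. The 3 mated females were placed with fertile males at 2200 h, had sperm or a plug at a check 30 min later, stayed with the males, and were killed 3 h after mating with abundant semen in the uterus. No genotype or drug differed between the groups; contact with a male and the smear check belonged to the mated females and cannot be told apart from mating. Arrays carry no read depth, so the number of arrays limits the precision, and all values are log2 signals, in which 1 unit is a doubling.

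The axoneme of a motile cilium is a ring of doublet microtubules around a central pair. Outer and inner dynein arms on each doublet pull on its neighbour; radial spokes, the central apparatus and the nexin-dynein regulatory complex control when they do so; and proteins inside the doublets, among them the tektins, stiffen them. Dynein arms are put together in the cytoplasm by dedicated assembly factors before they enter the cilium. In the oviduct, motile cilia are borne by multiciliated epithelial cells and help to move the egg and fluid, and sperm swim with a flagellum built on the same plan.

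The promoters of several members carry the X-box, the paired site read by RFX factors, which switch on genes of the cilium. Promoter windows of 300 bases, from 250 before to 50 after each RefSeq start (GRCr8), were found for 48 of the 56 members. A match to the X-box, on either strand and with 0 to 3 bases between its paired parts, occurred in 7 of these 48 genes (14.6%) and in 138 of the 11920 other tested genes with a window (1.16%). Counted by window, it was in 12.5% of the 56 member windows and 1.60% of all 33469 windows. The stretches below show each match with its flanks on the gene's own strand, 5′ to 3′, with the X-box in capitals; they are shown because the X-box is a feature that these members share beyond their names.
Dnai1, chr5:61525960-61526012, plus strand: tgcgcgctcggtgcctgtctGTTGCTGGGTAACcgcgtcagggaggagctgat
Dnai2, chr10:100258940-100258992, plus strand: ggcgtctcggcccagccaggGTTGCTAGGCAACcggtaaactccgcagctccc
Dnah2, chr10:54766038-54766091, minus strand: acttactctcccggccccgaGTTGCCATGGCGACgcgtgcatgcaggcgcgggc
Dnaaf6, chrX:108512933-108512986, plus strand: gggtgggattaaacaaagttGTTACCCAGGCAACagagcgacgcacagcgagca
Tekt2, chr5:143907728-143907780, minus strand: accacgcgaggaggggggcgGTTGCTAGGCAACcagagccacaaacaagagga
Cfap45, chr13:87521798-87521851, plus strand: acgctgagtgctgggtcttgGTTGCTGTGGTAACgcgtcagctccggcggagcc
Hydin, chr19:55146432-55146485, plus strand: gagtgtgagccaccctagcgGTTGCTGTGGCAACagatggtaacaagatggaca

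The match began 99 bases before the start in Dnai1, 62 in Dnai2, 49 in Dnaaf6, 45 in Dnah2 and 36 in Tekt2. In Hydin it began 14 bases before the start and ended on the last base before it. In Cfap45 it began 13 bases before and included the start itself. Dnai2 and Tekt2 held the same X-box letters. The X-box part GTTGCC, which may lie inside a full match, was in 17 of the 48 members (35.4%) and 12.4% of the other tested genes. The letters TAAACA, a core of forkhead sites such as those of FOXJ1, were in 9 members (18.8%) against 11.2% of the others, and CCAAT was in 17 (35.4%) against 39.0%. Both were searched on either strand and may overlap other motifs; a match is a run of letters and not a measured binding site.

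Most axoneme genes were expressed well above background in both groups. The guide to background was the family of odorant and pheromone receptors (1256 genes), whose 95th percentile of mean signal was 7.13; a gene at or below it is said to lie within the receptor range. Only 5 members lay there: Cfap97d1, Spag6, Dnah8, Tektl1 and Tekt5, at mean log2 signals of 5.65 to 6.70. Spag16 (7.14), Rsph6a (7.29, of the sperm flagellum's spokes) and Tektip1 (7.29) lay just above it, and the next member, Tekt3, was at 8.06. Dnah8, Tektl1 and Tekt5 are known mainly from sperm flagella. Markers of the labelled tissue were bright: the ciliated cell regulator Foxj1 ranged from 10.68 to 10.94 and the epithelial keratin Krt8 from 12.83 to 13.11 over the 6 arrays. The smooth muscle gene Acta2 (9.77 to 9.91) and the leukocyte gene Ptprc (8.09 to 8.42) were above the receptor range too. A signal above it does not by itself show a cell type. The sperm gene Prm1 was also above it in unmated rats, at 7.69 to 7.82. The purity of the lining was not tested.

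No axoneme gene passed the test between mated and unmated rats after correction for all genes. With limma, 0 of the 56 members passed an adjusted p of 0.05 (adjusted p = 0.984 for the lowest), as did 0% of all 14506 genes. At an unadjusted p under 0.05, 2 members were higher, Tekt5 and Spag6, and 0 were lower, where 3.02% of all genes were higher and 1.55% lower. The 3 mated values lay entirely above the 3 unmated values for 3 members (Tekt5, Spag6 and Tektl1) and entirely below for 1 (Cfap45); the shares of all genes are 5.24% and 3.23%. These counts are close to the background. The fold changes themselves leaned to 1 side: 44 of the 56 members (78.6%) had a log2 fold change below 0, mated minus unmated, against 45.5% of all genes. Their median was -0.07 against 0.01 for all genes. Each member's 95% confidence interval, before adjustment, lay inside a 1.5-fold change either way; the lowest bound was -0.58, for Dnaaf4, and the highest 0.55, for Tekt5.

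**Figure D1:**
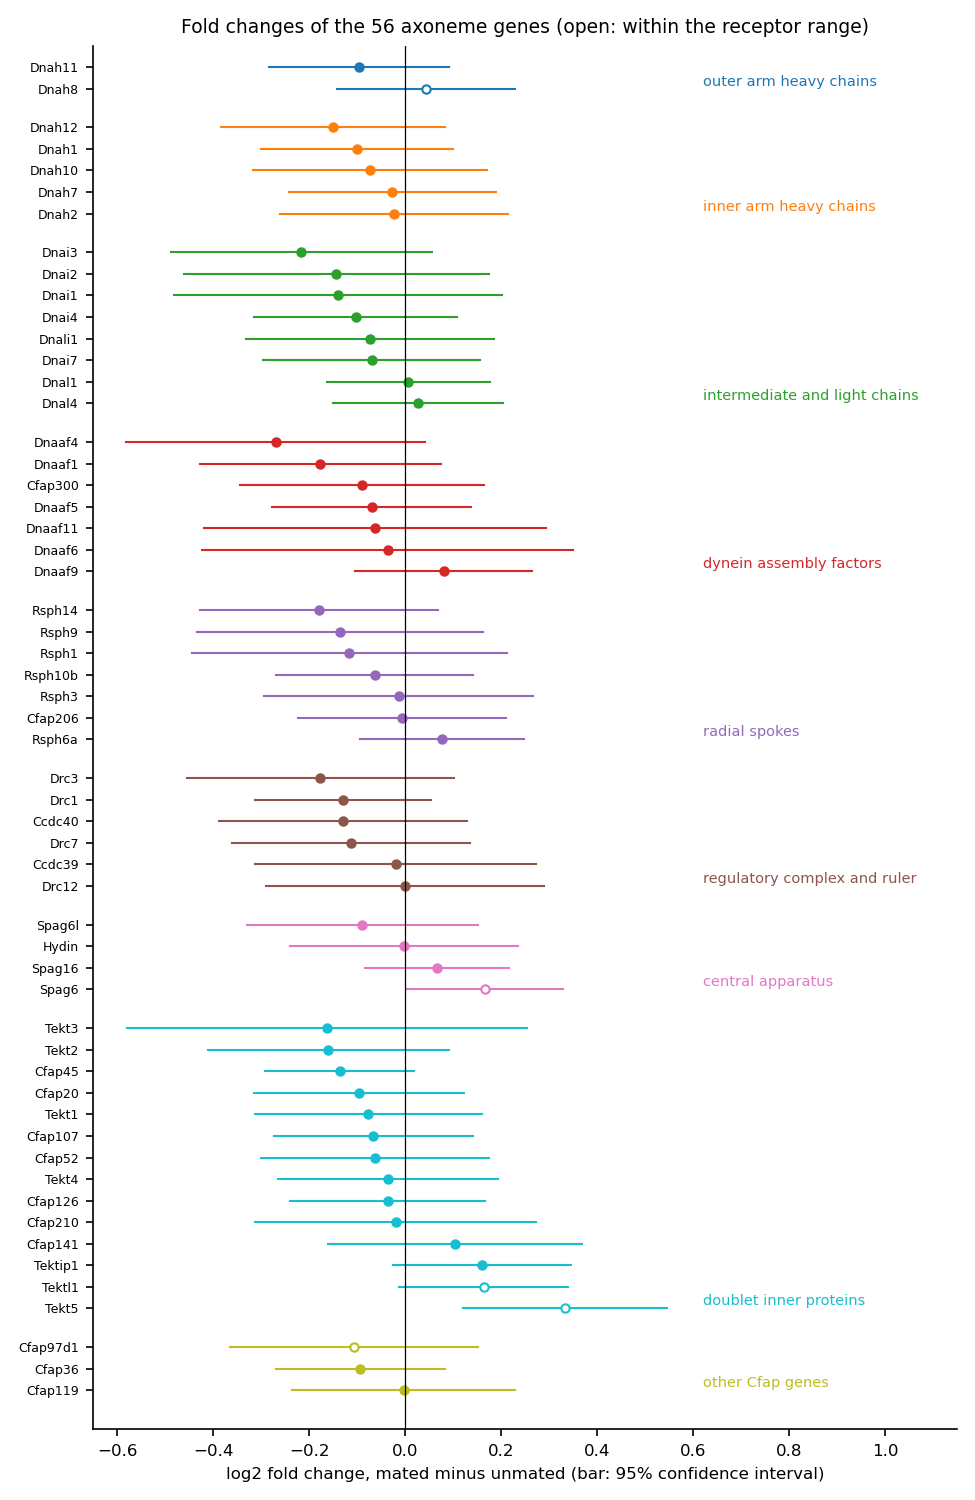
Log2 fold change of each of the 56 axoneme genes, mated minus unmated (horizontal axis), grouped by structural class; points are limma estimates from 3 arrays per group and bars are 95% confidence intervals. Filled points, above the receptor range, mostly lie left of 0 with intervals that include it, and the open points of Tekt5, Spag6 and Tektl1 lie right of it.

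The outer dynein arm, the stronger motor, was represented by 2 heavy chains. Dnah11, a heavy chain of outer arms in airway and oviduct cilia, was at 11.37, 11.40 and 11.48 in unmated rats and 11.42, 11.35 and 11.19 in mated rats. The groups overlapped, with mated replicates 2 and 3 below every unmated value and mated replicate 1 among them, and the log2 fold change was -0.10 (95% confidence interval -0.28 to 0.09). Dnah8, an outer arm heavy chain of the sperm flagellum, lay within the receptor range at 6.21 ± 0.09 and 6.25 ± 0.09 (SD, n = 3 per group).

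All 5 inner arm heavy chains had log2 fold changes below 0, from -0.15 to -0.02, with none past the threshold. Dnah12, a heavy chain of single-headed inner arms, had the smallest p of the class: it was at 12.50, 12.67 and 12.58 in unmated and 12.59, 12.47 and 12.24 in mated rats. Mated replicates 2 and 3 were below every unmated array and mated replicate 1 was among them. Dnah1, whose loss in people and mice impairs sperm flagella, averaged 11.60 ± 0.03 in unmated and 11.50 ± 0.15 in mated rats, and Dnah7 averaged 11.44 ± 0.12 and 11.42 ± 0.13 (SD, n = 3 per group). Dnah2 and Dnah10, the heavy chains of the 2-headed inner arm, differed by -0.02 and -0.07.

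Intermediate and light chains anchor and tune the heavy chains, and 6 of these 8 members lay below 0, at a class median of -0.09. Dnai3, an intermediate chain of the 2-headed inner arm, was at 11.31, 11.49 and 11.55 in unmated and 11.46, 11.20 and 11.04 in mated rats, a log2 fold change of -0.22 (95% confidence interval -0.49 to 0.06). Its mated values spread over a wider range than its unmated ones, and mated replicate 1 lay inside the unmated range. Dnai1 and Dnai2, the outer arm intermediate chains whose loss causes primary ciliary dyskinesia, had nearly equal differences of -0.14 each. For Dnai1 the mated arrays read 10.65, 10.47 and 10.02 against 10.51, 10.58 and 10.47 in unmated rats, so that the highest and the lowest of its values were both from mated animals. The outer arm light chain Dnal1 and the light chain Dnal4, at mean signals of 8.54 and 8.59, were the 2 members on the other side of 0, at 0.01 and 0.03; Dnal1 turned to -0.01 when arrays were centred on their medians. Dnali1, of the inner arms, differed by -0.07, Dnai4 by -0.10 and Dnai7 by -0.07.

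Dynein assembly factors held the member with the lowest estimate. Dnaaf4, a cytoplasmic partner of chaperones in building dynein arms, was at 9.33, 9.64 and 9.62 in unmated and 9.53, 9.17 and 9.08 in mated rats; its log2 fold change was -0.27 (95% confidence interval -0.58 to 0.04; adjusted p = 0.984 by limma). Again mated replicate 1 sat among the unmated values while the other mated arrays lay below them. Dnaaf1, also required for arm assembly, averaged 10.15 ± 0.15 and 9.97 ± 0.16 (SD, n = 3 per group). Of the 7 members of this class 6 were below 0, and Dnaaf9 was the exception at 0.08. Dnaaf6 and Dnaaf11, chosen after their values were seen, varied most among mated rats in this class: their mated values were 8.96, 8.24 and 8.54, and 10.89, 10.48 and 10.23, so mated replicate 1 was the highest of the 6 arrays for both and a mated array the lowest.

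Radial spokes carry signals from the central pair to the arms, and 6 of the 7 members here were below 0, at a median of -0.06. Rsph14 was at 9.70, 9.97 and 9.77 in unmated and 9.82, 9.57 and 9.51 in mated rats, which gives -0.18 (95% confidence interval -0.43 to 0.07). The spoke head proteins Rsph1 and Rsph9 differed by -0.12 and -0.14, Rsph10b by -0.06, and Rsph3 and Cfap206 by -0.01 each. The sperm spoke protein Rsph6a, dim throughout, lay at 0.08.

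The regulatory complex and the ruler that spaces the arms had the lowest class median, -0.12. Drc1, which anchors the complex to the doublet, was at 10.61, 10.67 and 10.65 in unmated and 10.65, 10.47 and 10.42 in mated rats. Its unmated values lay within a range of 0.06, and mated replicate 1 fell inside it. Drc3 was at 12.19, 12.50 and 12.25 against 12.36, 12.03 and 12.02, a difference of -0.18 (95% confidence interval -0.45 to 0.10). Ccdc40, a ruler subunit, averaged 10.73 ± 0.12 in unmated and 10.60 ± 0.19 in mated rats, and its partner Ccdc39 averaged 11.01 ± 0.19 and 10.99 ± 0.20 (SD, n = 3 per group). Drc7 differed by -0.11, and for Drc12 both group means were 11.99.

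The central apparatus stood around 0, with a median of 0.03 over 4 members that lay on both sides. Hydin, a giant protein of the central pair, was nearly equal in the groups at 12.18 ± 0.10 and 12.17 ± 0.18, and Spag6l averaged 12.70 ± 0.08 and 12.61 ± 0.19 (SD, n = 3 per group). Spag6, a paralogue of Spag6l in the central pair, was at 6.10, 6.20 and 6.12 in unmated and 6.25, 6.38 and 6.29 in mated rats. The groups did not overlap, all values lay within the receptor range, and the log2 fold change was 0.17 (95% confidence interval 0.004 to 0.33). In the limma fit across all genes its adjusted p was 0.984. Related copies can share signal on an array, and the far brighter Spag6l probe set pointed the other way, at -0.09. Spag16, at the edge of the receptor range, differed by 0.07. Without the 2 dim members, Spag6 and Spag16, the class median was -0.05.

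Tektins and other proteins inside the doublets formed the largest class, of 14 members, 10 of them below 0 at a median of -0.05. Tekt5, a tektin of sperm flagella, was at 6.40, 6.64 and 6.57 in unmated and 6.95, 6.74 and 6.92 in mated rats. All mated values lay above the unmated ones, and the log2 fold change was 0.33 (95% confidence interval 0.12 to 0.55). In the limma fit across all genes its adjusted p was 0.984, and the gene lies within the receptor range. Tektl1, dim as well and chosen after its values were seen, was at 6.65, 6.56 and 6.57 against 6.71, 6.87 and 6.69. Tektip1, just above the receptor range and also chosen after its values were seen, differed by 0.16. The bright tektins Tekt1, Tekt2 and Tekt4 lay at -0.08, -0.16 and -0.04, and Tekt3 at -0.16. Cfap45, chosen for its lack of overlap, was at 10.71, 10.73 and 10.71 in unmated and 10.65, 10.57 and 10.52 in mated rats, a difference of -0.14 (95% confidence interval -0.29 to 0.02). It was the member whose mated arrays were all below the unmated ones, mated replicate 1 included. Cfap52 differed by -0.06, Cfap20, Cfap107, Cfap126 and Cfap210 by -0.10 to -0.02, and Cfap141 by 0.10.

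Of the 3 remaining Cfap genes, Cfap36 was at 11.14, 11.26 and 11.24 in unmated and 11.22, 11.10 and 11.04 in mated rats. Its difference was -0.09, and only mated replicate 1 lay inside the unmated range. Cfap97d1, the dimmest member, read 5.95, 5.64 and 5.52 against 5.54, 5.65 and 5.60; unmated replicate 1 stood above the rest. Cfap119 had group means of 10.21 in both.

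**Figure D2:**
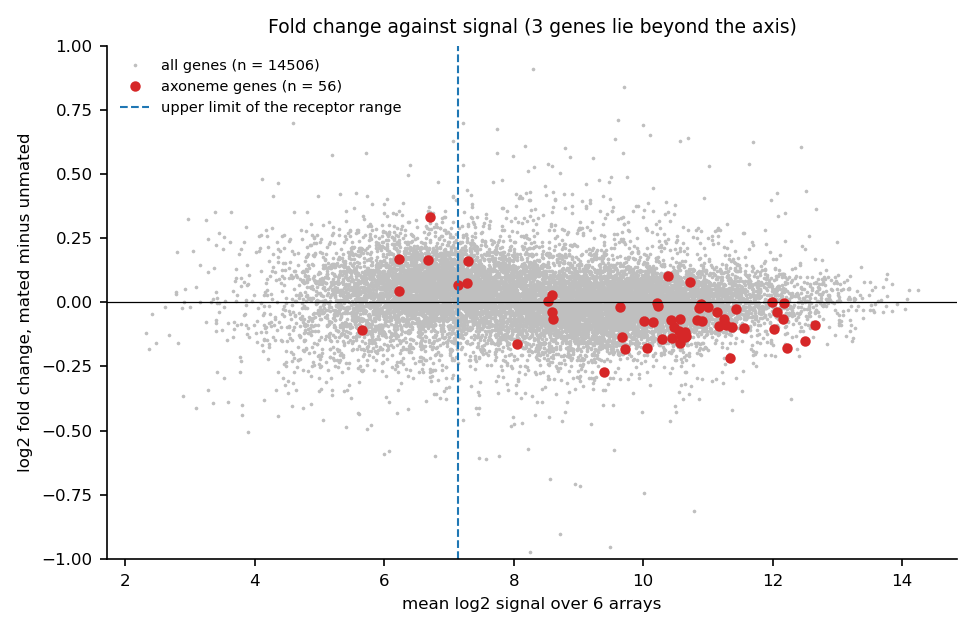
Log2 fold change, mated minus unmated, against mean log2 signal over the 6 arrays for all 14506 genes (grey) and the 56 axoneme genes (red); the dashed line is the upper limit of the receptor range, and 3 genes lie beyond the vertical axis. To the right of the line 43 of 51 axoneme genes are below 0, and to the left 4 of 5 are above it.

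Bright and dim members lay mostly on different sides of 0. Of the 51 above the receptor range, 43 were below 0 (median -0.07), against 49.2% of all 10308 genes above it (median 0.00). Of the 5 within it, 4 were above 0, at a median of 0.16; among all 4198 genes within it 62.9% were above 0, at a median of 0.04. Dim genes as a whole thus leaned upward in mated rats. The receptor family itself, with 1193 of its 1256 genes within the range, leaned little: 51.4% were above 0, at a median of 0.007. Whether the lean of dim genes bears on Tekt5, Spag6 and Tektl1 was not tested.

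The members moved together from array to array, and the arrays of 1 group differed more than the groups did. Each member was set relative to its own mean in unmated rats, and the 51 members above the receptor range were averaged on each array. This mean was -0.08, 0.07 and 0.00 on unmated replicates 1, 2 and 3 and 0.11, -0.13 and -0.19 on mated replicates 1, 2 and 3. The mated array with the highest mean thus exceeded every unmated array, and the other mated arrays lay below all of them. Mated replicate 3 held the lowest of the 6 values for 33 of the 56 members (58.9%, against 17.2% of all genes), and mated replicate 1 held the highest for 28 (50%, against 22.5%). The SD was larger in mated than in unmated rats for 49 members (87.5%), against 56.6% of all genes, with median SDs of 0.16 and 0.09.

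**Figure D3:**
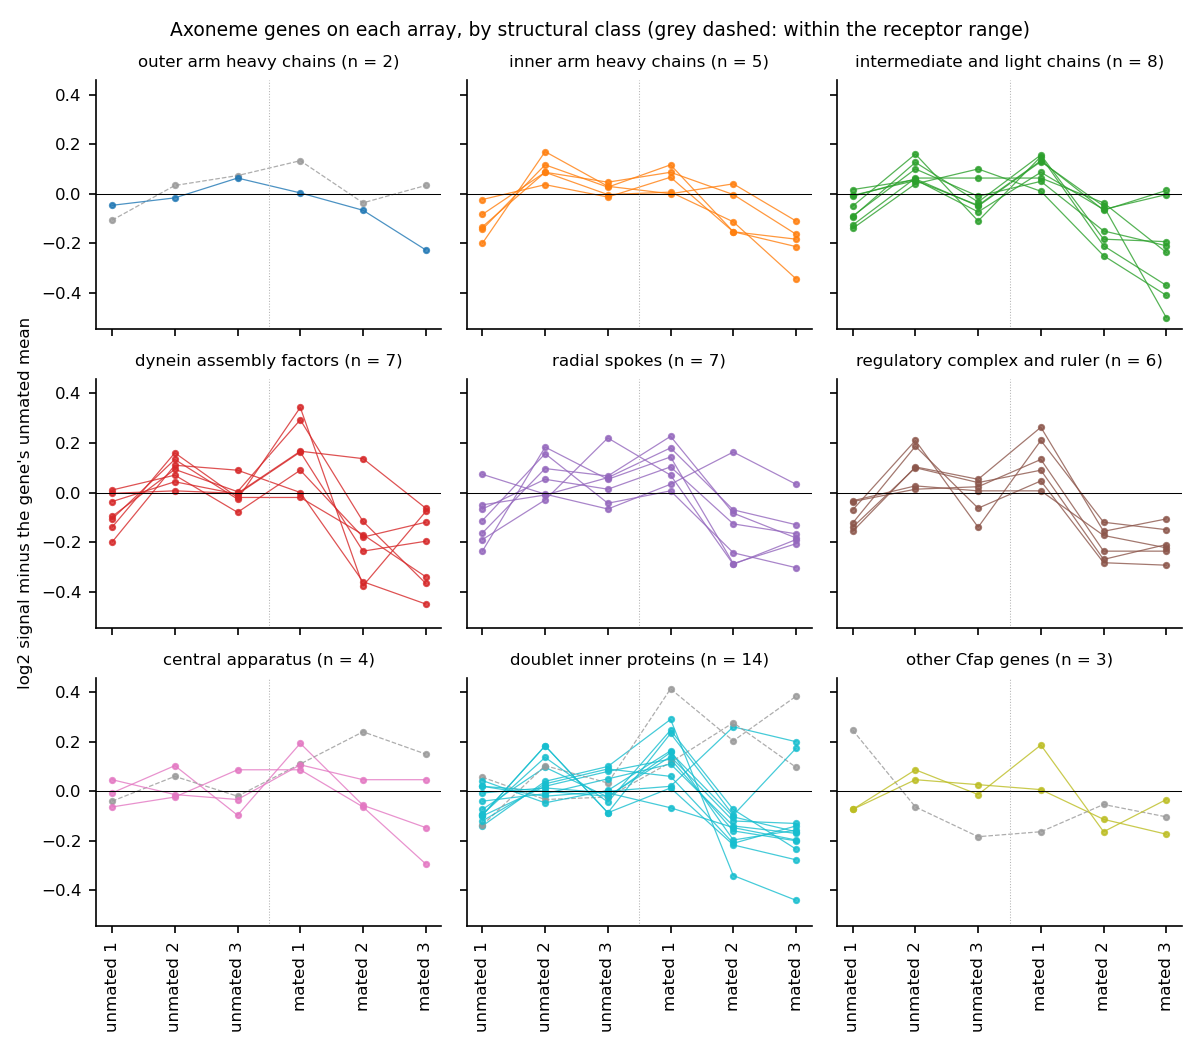
Log2 signal of each axoneme gene on each array minus that gene's mean in unmated rats, in a panel per structural class; a line joins the values of 1 gene (arrays have no order), and grey dashed lines are genes within the receptor range. In most panels the solid lines are highest on mated replicate 1 or unmated replicate 2 and lowest on mated replicate 3 or 2.

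The structural classes shared this pattern in part. Over members above the receptor range, class means on mated replicate 1 lay between 0.00 for the outer arm heavy chain and 0.15 for assembly factors. On mated replicate 2 they lay between -0.21 for the regulatory complex and ruler and -0.02 for the central apparatus. On mated replicate 3 they lay between -0.24 for intermediate and light chains and -0.10 for the remaining Cfap genes. No class was above 0 on mated replicate 2 or 3. The regulatory complex and ruler and the remaining Cfap genes were lowest on mated replicate 2, and the other 7 classes on mated replicate 3. The highest array was mated replicate 1 for 7 classes, unmated replicate 2 for inner arm heavy chains and unmated replicate 3 for the outer arm heavy chain. On unmated replicate 1 every class mean was below 0, from -0.12 for inner arm heavy chains to -0.01 for the central apparatus.

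Counts of lower members changed with the arrays included. Without mated replicate 1, 14 members had an unadjusted limma p under 0.05 in the lower direction, against 4.01% of all genes, and for 30 the remaining mated arrays lay below every unmated array, against 12.4%. The 14 included Dnah1, Dnai2, Dnai3, Dnaaf4, Rsph14, Drc1, Drc3, Drc7, Ccdc40 and Tekt2. The median of the members was then -0.15 and 48 were below 0 (48.5% of all genes), and still 0 passed adjustment over all genes (adjusted p = 0.506 for the lowest). Without mated replicate 3 it was -0.01, with 30 members below 0 (44% of all genes), and without mated replicate 2 it was -0.03, with 35 below 0 (45.3%). Without unmated replicate 2 it was -0.04, also with 35 below 0 (45.8%). Without unmated replicate 1 it was -0.11, and 4 members were lower and 6 higher with no overlap, against 7.2% and 10.3% of all genes. When limma weighted the arrays by their scatter, mated replicate 1 had the lowest weight (0.446) and the median was -0.12. In that fit 5 members were lower at an unadjusted p under 0.05 and 3 were higher (Spag6, Tekt5 and Tektip1), against 3.02% and 5.3% of all genes.

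Cilium genes outside the rule showed the same order of arrays in their mean. These were 47 measured genes of 71 listed, among them docking complex subunits, further doublet and spoke proteins, assembly factors with other names such as Zmynd10, and regulators such as Foxj1. On unmated replicates 1 to 3 their mean was -0.10, 0.08 and 0.02, and on the mated replicates 0.10, -0.19 and -0.22. The lowest of the 6 arrays was mated replicate 3 for 25 of the 47 genes and mated replicate 2 for 17. Among the regulators, Foxj1 and Rfx2 did not follow the mean on mated replicate 3. Foxj1 read 10.73, 10.94 and 10.86 in unmated and 10.91, 10.68 and 10.92 in mated rats. Rfx2 read 10.21, 10.32 and 10.23 against 10.22, 10.19 and 10.22. Of the 47, 43 were below 0 with a median of -0.10, against 45.5% of all genes. By limma 0 passed an unadjusted p of 0.05 in either direction (0 after adjustment), where 3.02% of all genes were higher and 1.55% lower. The 6 light chains that cilia share with other dyneins, such as Dynll1, lay on both sides of 0, with a median of 0.00. One of them, Dynlrb2, is also among the 47. On the arrays their mean was -0.07, 0.03 and 0.04 in unmated and 0.115, -0.06 and -0.05 in mated rats. Mated replicate 1 was thus the highest array for them too. In whole tissue fewer ciliated cells and less of these transcripts per cell cannot be told apart.

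When each array was shifted by the median of those 47 genes, the axoneme genes varied less from array to array. This gives a level relative to other cilium genes in place of the total RNA. The median SD within a group of the 51 brighter members was 0.14 before and 0.08 after the shift, and it went from 0.10 to 0.15 for the 10210 other genes above the receptor range. On this relative scale 42 of the 51 lay within 0.1 of 0, at a median of 0.02, where it was -0.07 before. The shift moves every gene's fold change by the same amount, so the order of the members is unchanged by construction. The lowest were Dnaaf4 at -0.17 and Dnai3 at -0.12, and the highest were Tektip1 at 0.26, Cfap141 at 0.20 and Dnaaf9 at 0.18. The scale was chosen after the array pattern was seen, and these values are given with no test. Because the 47 genes and the members had similar array means, the lower SD and the median near 0 restate that likeness. They are no separate result.

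Markers of other cells moved on the arrays in other ways. The 8 measured genes of secretory and general epithelium included Pax8 and Slpi but also Krt7, Krt8 and Epcam. They averaged 0.02, -0.02 and 0.00 on the unmated and 0.00, 0.12 and 0.21 on the mated replicates. Their mean was thus highest on the arrays where axoneme genes were lowest. By gene, 6 were highest on mated replicate 3, only Slpi on mated replicate 2 and 1 on unmated replicate 1. On mated replicate 2, Pax8 and Krt7 lay below their unmated means. Slpi, at 0.36, alone passed an unadjusted limma p of 0.05 (adjusted p = 0.984), where 3.02% of all genes were higher. Of these 8, 7 had fold changes above 0, against 53.2% of all genes, and 0 lay within the receptor range. Fibroblast genes (8 measured, 1 within the receptor range) averaged 0.11, 0.07 and -0.18 on unmated and -0.22, -0.09 and -0.10 on mated arrays. Like most axoneme genes, 7 of these 8 had fold changes below 0 (45.5% of all genes), at a median of -0.07, with Dpt the lowest at -0.46. Smooth muscle genes (7 measured, 1 within the receptor range) averaged from -0.19 to 0.16 in unmated and from -0.17 to 0.06 in mated rats, and 5 of the 7 were below 0. The means of endothelial genes (5 measured, 1 within the receptor range) and leukocyte genes (7 measured, 4 within it) stayed between -0.10 and 0.06 on every array. Single genes went further, in opposite directions. Tie1 and Tek, of endothelium, had fold changes of 0.33 and -0.29, and the leukocyte genes S100a8 and Itgam 0.26 and -0.29. Tek, S100a8 and Itgam lie within the receptor range, and the groups of S100a8 and Itgam overlapped. The part of these lists in the axoneme values was not tested.

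Sperm and testis transcripts lay on both sides of 0, in rats with semen in the uterus. Over the 10 genes, 5 lay above 0, at a median of 0.00, and 6 were within the receptor range: Tnp1, Tnp2, Odf1, Akap4, Smcp and Tssk6. The array means were -0.01, 0.01 and -0.01 in unmated and -0.04, 0.03 and -0.02 in mated rats. Prm1, a protamine of sperm heads, was at 7.82, 7.69 and 7.82 in unmated and 7.87, 7.99 and 7.98 in mated rats. Tnp1, a transition protein of maturing sperm heads that lies within the receptor range, was at 6.12, 6.14 and 6.17 in unmated and 5.89, 6.04 and 5.96 in mated rats. The groups did not overlap for 3 of the 10 genes, with Prm1 higher by 0.17 and Tnp1 and Ldhc at -0.18 and -0.22; 5.24% of all genes were higher and 3.23% lower without overlap. Prm2 differed by -0.02 and Spata18 by -0.16. Ldhc and Spata18 were bright in unmated rats too, at means of 10.78 and 12.93, so their signal here is not from sperm alone. At an unadjusted limma p under 0.05, 0 of the list were higher and 1, Tnp1, was lower, against 3.02% and 1.55% of all genes.

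**Figure D4:**
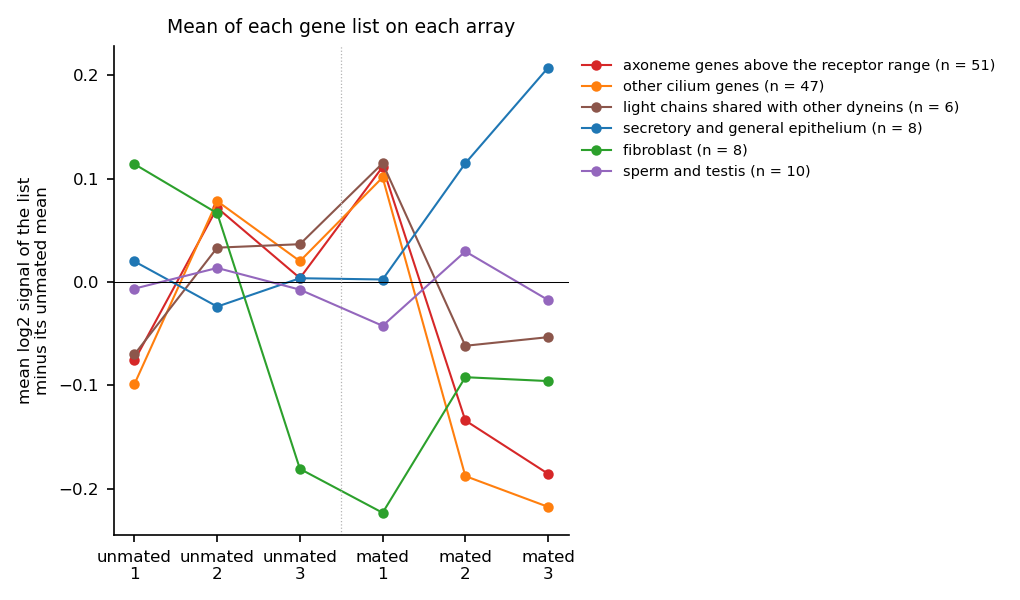
Mean log2 signal of 6 gene lists on each of the 6 arrays, relative to each list's mean in unmated rats; a point is the mean over the list's measured genes, and lines join 1 list (arrays have no order). Axoneme genes and other cilium genes run together, from about 0.1 on mated replicate 1 to about -0.2 on mated replicate 3, where the epithelial list is at its highest.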

How the data were processed

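Each deposited value is the log2 signal of a probe set on an array, which the authors made with RMA in Affymetrix Expression Console, per the submitters' processing notes; versions and the genome build are not given in the sources used here. RMA aligns the arrays' distributions (medians 7.89 to 7.94) and compresses differences of dim probe sets. Of 29214 probe sets, 15310 had 1 symbol, 323 several and 13581 none listed; the probe set of highest mean was kept per gene, leaving 14506 genes.

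Groups came from the sample titles. The comparison of mated with unmated rats used limma 3.58.1 (R 4.3.3; lmFit, eBayes, no trend or block) over all genes, two-sided, with Benjamini-Hochberg adjustment. The fit was tested on simulated data. Named genes were, in each class, those of smallest p and of largest fold change, members at an unadjusted p under 0.05, non-overlapping members of at least 0.2, and a list of well-known members. The members, classes and lists were chosen with earlier results of these data known. Alternatives covered scaling, variance model, array weights, filters, probe set choice and each array left out. Promoters are from RefSeq (GRCr8), matched by symbol.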

Additional observations from a re-analysis of the deposited data

How the results depend on the processing

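Over 16 alternative settings 0 members passed the adjusted threshold, with adjusted p = 0.506 the lowest. The count of members higher at an unadjusted p under 0.05 was 1 with the replicate block, an intensity trend, a second quantile normalization, median centring or all probe sets fitted, and 0 without the dimmest 25% or 50% of genes, which also leave 0 non-overlapping higher members because the dim members are gone. Array weights gave mated replicate 1 the lowest weight (0.446) and put 5 members lower (Dnai3, Dnaaf4, Rsph14, Drc1 and Cfap45; 3.02% of all genes) and 3 higher (Spag6, Tekt5 and Tektip1; 5.3%). The central apparatus median was -0.0467 without the dimmest 50%. With 1 array left out, the counts ranged from 0 to 14 lower and from 1 to 3 higher at that p, from 1 to 30 non-overlapping lower and from 3 to 6 non-overlapping higher, and the doublet median ranged from -0.15 to 0.00. Without unmated replicate 1, 4 members were lower and 6 higher without overlap (7.2% and 10.3% of all genes). At that p, 1 member was higher without unmated replicate 1 or 3 or mated replicate 2 or 3, and 3 were higher without mated replicate 1. The median of the members stayed at -0.07 when those within the receptor range were left out, an alternative added after seeing the data.

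The replicate block leaves fold changes as they are by construction. The numbers share no stated animal or day, deviations of same-numbered arrays correlated at 0.004, -0.08 and 0.07 across genes, and 1 of 6 arrays correlated best with its own number, so the block (1 member higher at an unadjusted p under 0.05) is only an alternative.

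Fold changes of 35 members lay on 1 side of 0 in each of the 16 settings that gave a value. Like the block, the intensity trend, robust fitting and both filters leave fold changes as they are by construction. So do both probe set choices, as each member has 1 probe set. A sign could change only with array weights, another scaling or an array left out. The shift by other cilium genes is not among the 16 settings. On that scale 37 of the 56 members were above 0 and 19 below. Over the 16 settings Drc12, at 0 as deposited, ran from -0.132 to 0.0783, and 20 members changed sign in at least 1 of them. The cause was not tested. Array weights turned Dnal1 to -0.024 and Dnal4 to -0.0076, median centring turned Dnal1 to -0.01, and a second quantile normalization turned Cfap119 to 0.0033. With 1 array left out the log2 fold change ran from -0.01 to 0.0833 for Dnah8, from -0.198 to 0.0167 for Cfap97d1, from -0.123 to 0.0617 for Dnah2, from -0.0933 to 0.0417 for Dnah7 and from -0.227 to 0.133 for Dnaaf6. It ran from -0.133 to 0.0717 for Rsph3, from -0.135 to 0.085 for Ccdc39, from -0.102 to 0.0683 for Hydin, from -0.133 to 0.0267 for Tekt4 and from -0.153 to 0.0867 for Cfap210. For Cfap119 it ran from -0.0983 to 0.0767, for Dnal1 from -0.0333 to 0.0417, for Cfap206 from -0.10 to 0.055, for Dnal4 from -0.0267 to 0.0733 and for Cfap52 from -0.177 to 0.0033. For Cfap126 it ran from -0.125 to 0.01, for Dnai1 from -0.275 to 0.04, for Dnai7 from -0.137 to 0.0133, for Dnaaf11 from -0.242 to 0.0883 and for Spag6l from -0.178 to 0.0117.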
